A study of Mus musculus with 18 samples.

Results

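The regions described here were 16604 narrow stretches of chromatin that carried the histone mark H3K9me3 in both Trim28-knockout and wild-type mouse embryonic stem (ES) cells and on which no KAP1 peak was called. They were selected on the measurements themselves: each was a region of the deposited wild-type H3K9me3 list under 5000 bp wide that shared at least 1 bp with a region of the knockout list ("retained") and no base with a KAP1 peak called in wild-type chromatin over input. They made up 16604 of the 37002 wild-type regions. The values that chose them are therefore given as descriptions, without a test.

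KAP1, the product of Trim28, is a corepressor that is brought to DNA by zinc finger proteins and that recruits the methyltransferase SETDB1, which places trimethyl groups on lysine 9 of histone H3. In ES cells this route is best known for silencing endogenous retroviruses and for protecting imprinted regions. H3K9me3 can also be written by SUV39H1 and SUV39H2, which act on repeat-rich heterochromatin, so that the mark and KAP1 need not lie at the same place.

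The study removed Trim28 from mouse cells and measured RNA, H3K9me3 and KAP1 binding. Knockout ES3 cells, a C57BL/6 ES line grown in serum with LIF, were sampled 4 days after Cre recombinase was switched on by 4-hydroxytamoxifen (4-OHT), and wild-type ES3 cells after 4 days of culture. Knockout C57BL/6 mouse embryonic fibroblasts (MEFs) were sampled 5 days after the same induction, and wild-type MEFs after 5 days of culture. By the labels, H3K9me3 in the knockout was lowered at that time and had not disappeared, which limits what a retained region shows. Duplicate cultures were pooled before RNA extraction, every condition is 1 library or 1 region list, and no replicate spread or test of a difference could be had. The depth of the libraries is unknown, since the tables give RPKM (read numbers divided by transcript length and library total) and no counts. Trim28 itself stood at 37.2 RPKM in knockout ES3 cells and 1051 RPKM in wild-type ES3 cells, and at 5.84 RPKM in knockout MEFs and 62.8 RPKM in wild-type MEFs.

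The following promoters show what kind of DNA lies at gene starts that the regions covered. RefSeq promoters (GRCm38.p6) were found by symbol for 39 of the 79 genes whose start lay inside a region, 37 of them with 1 listed start. Among genes found in this way, lying on the same chromosome in RefSeq and reaching 1 RPKM in either ES3 library, some with large and some with small RNA ratios were taken. They are not the extremes of all 79 genes. BC080695, not printed, had a larger ratio than any of them, and Usp14, not printed, a smaller ratio than Zfp987 and Ddx4. Each sequence is the 250 bases before the start, 5′ to 3′ on the gene's strand, with CG dinucleotides in capitals. The windows are chr12:87618659-87618908 (+ strand) for Gm4027, a multicopy gene; chr2:152962235-152962484 (+) for Ttll9, a tubulin ligase family gene; chr4:146097062-146097311 (+) for Zfp987, a zinc finger gene; chr13:112652311-112652560 (−) for Ddx4, a germ cell RNA helicase; and chr11:88973685-88973934 (+) for Coil, the Cajal body protein coilin.
Gm4027: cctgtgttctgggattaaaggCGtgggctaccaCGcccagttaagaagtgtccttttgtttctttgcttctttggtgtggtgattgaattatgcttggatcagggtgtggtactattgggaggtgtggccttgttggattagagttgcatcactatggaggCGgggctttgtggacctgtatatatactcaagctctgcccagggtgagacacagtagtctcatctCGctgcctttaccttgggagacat
Ttll9: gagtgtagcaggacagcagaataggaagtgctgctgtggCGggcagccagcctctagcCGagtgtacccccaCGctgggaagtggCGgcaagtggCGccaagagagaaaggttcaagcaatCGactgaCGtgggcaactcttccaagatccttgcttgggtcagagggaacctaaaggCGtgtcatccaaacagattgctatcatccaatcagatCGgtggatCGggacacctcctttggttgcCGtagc
Zfp987: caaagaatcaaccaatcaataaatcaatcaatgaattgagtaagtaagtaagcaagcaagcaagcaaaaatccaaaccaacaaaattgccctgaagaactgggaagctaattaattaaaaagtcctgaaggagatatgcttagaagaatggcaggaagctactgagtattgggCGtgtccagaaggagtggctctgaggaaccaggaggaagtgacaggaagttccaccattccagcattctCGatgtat
Ddx4: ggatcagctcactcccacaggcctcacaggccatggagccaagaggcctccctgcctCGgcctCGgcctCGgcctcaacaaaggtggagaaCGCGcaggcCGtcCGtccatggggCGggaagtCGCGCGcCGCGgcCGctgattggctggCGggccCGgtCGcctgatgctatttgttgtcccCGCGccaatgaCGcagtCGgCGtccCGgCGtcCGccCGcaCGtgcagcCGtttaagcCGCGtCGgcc
Coil: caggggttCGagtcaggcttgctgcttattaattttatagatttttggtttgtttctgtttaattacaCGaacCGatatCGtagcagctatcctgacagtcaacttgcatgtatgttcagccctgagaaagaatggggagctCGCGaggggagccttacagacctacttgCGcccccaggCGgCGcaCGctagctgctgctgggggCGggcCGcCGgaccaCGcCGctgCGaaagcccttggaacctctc

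Zfp987, Gm4027, Ttll9, Coil and Ddx4 held 2, 4, 11, 16 and 31 CG dinucleotides. Over the 37 promoters with 1 listed start the median was 2 CG per 250 bases and 13.5% held 10 or more, whereas over all 32851 promoters of the table the median was 6 and 37.8% held 10 or more. The hexamer TGCCGC, which ZFP57 recognises when methylated, was found on either strand in 1 of the 37, Ttll9, against 8.68% of all promoters. The E-box CACGTG was found in 2 of the 37, against 6.02% of all promoters. BB287469, a neighbour of Gm4027, shared an unbroken run of 209 of its 250 promoter bases with Gm4027. Reads of such copies can be divided between them, and their values are uncertain. The starts were those of GRCm38.p6, and the RNA and chromatin coordinates below are mm9, as deposited.

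In size the regions were small. Their median width was 878 bp (95% interval of the median 863 to 893 bp), with 10% under 367 bp and 10% over 2713 bp, and together they covered 20.4 Mb. The other retained regions were wider, with medians of 2167 bp for 387 narrow regions with a KAP1 peak and 6821 bp for 778 regions of 5000 bp or more without one. The 18715 narrow regions without KAP1 that had no counterpart in the knockout had a median of 577 bp. Widths under the limit ended with 4987, 4984 and 4983 bp, and the narrowest retained regions above it were 5006, 5006 and 5009 bp wide.

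The knockout call covered most of a typical region. The median share of a region that knockout regions covered was 81.8%, and 23.8% of the regions (95% Wilson interval 23.1 to 24.4%) were covered whole. Knockout regions covered 50% or more of 77.6% of them, and less than 10% of 137 regions. For narrow retained regions with a KAP1 peak the median share was 63.7%, and 13.4% (10.4 to 17.2%) were covered whole. All such intervals are for counting error alone. In the knockout the regions touching a member spanned a median of 758 bp, against 878 bp in wild type, and the knockout span was the larger one for 44.6% of the regions. The order turned when only members covered for 50% or more were taken, with a median knockout span of 897 bp against 748 bp in wild type. That choice itself favours narrow wild-type regions with wide knockout partners, so the turn is not read as a result. Narrow retained regions with a KAP1 peak had a median knockout span of 987 bp, against 2167 bp in wild type, and for 26.1% (22.0 to 30.7%) of them the knockout span was larger.

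**Figure D1:**
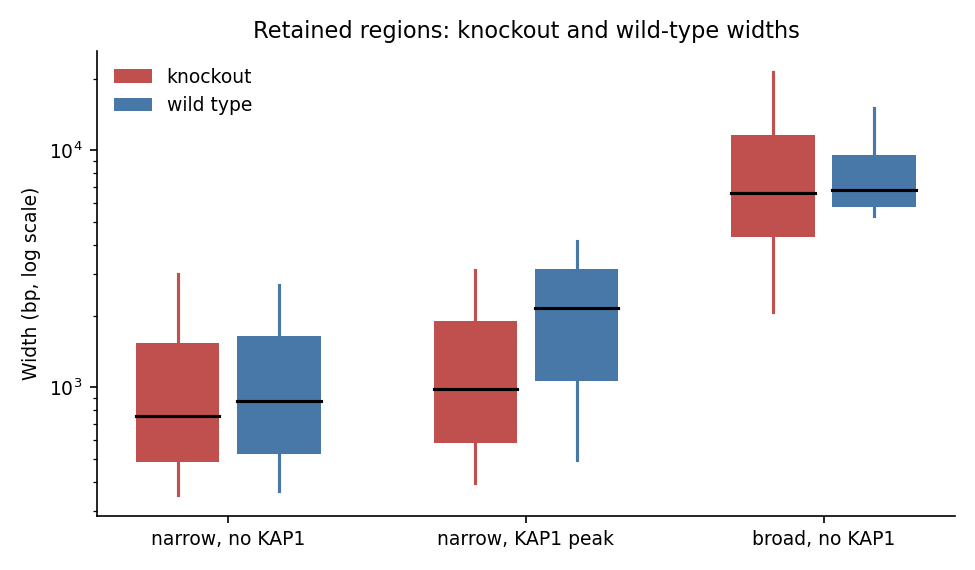
Width in bp (log scale) of retained H3K9me3 regions in 3 classes, with the summed width of the touching knockout regions (red) left of the wild-type width (blue); black lines are medians, boxes run between the 25% and 75% points and lines between the 10% and 90% points of the regions. For narrow regions without KAP1 the medians are 758 bp in the knockout and 878 bp in wild type, and for narrow regions with a KAP1 peak 987 bp and 2167 bp; the classes were chosen by width and overlap.

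The edges of the calls shifted in both directions. The left edge of the knockout call lay a median of 6 bp to the right of the wild-type edge, with 25% and 75% points of −126 and 198 bp and 10% and 90% points of −571 and 573 bp. The right edge had a median shift of −7 bp, with 25% and 75% points of −190 and 132 bp. At the extreme, the region at chr8:20005101-20009296 (4196 bp) lay in a knockout region of 71867 bp, and its neighbour at chr8:19679392-19683435 (4044 bp) in one of 60328 bp. The regions at chr17:13377072-13378492 and chr17:7567968-7569079 lay in knockout regions of 58133 bp and 57428 bp. A knockout region reaching several members is counted for each, and 9.69% of the members had a first knockout partner that also touched another wild-type region. At the other end, the region at chr7:32273541-32274186 shared 1 bp with the knockout list, and those next above it shared 2 and 3 bp. The nearest narrow regions that were left out lay 4, 6 and 7 bp from a knockout region. The region at chr16:61329471-61333298 had 0.679% of its 3828 bp covered, and chr8:87675684-87678506, which holds the start of Gm6531, had 0.708%.

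Retention differed with width and with the company a region kept. Of narrow wild-type regions without KAP1, 33.8% (32.1 to 35.5%) of those under 300 bp were retained, against 89.9% (87.0 to 92.2%) of those from 4000 bp up to the limit. A wider region has more bases with which to meet the knockout list, and the part of this in the trend was not tested. Regions with 20 or more other wild-type regions within 100 kb were retained in 77.2% (76.2 to 78.2%) of cases, against 39.6% (37.7 to 41.5%) of those with none. Between no neighbour and 9 neighbours the share stayed between 36.7% and 39.6%. Neither the width of the regions nor the local number of knockout regions was held equal here, and their part was not tested. The members had a median of 7 other regions within 100 kb, against 4 for the narrow wild-type-only regions, and 71.4% of the members against 59.9% of the wild-type-only regions had another within 10 kb.

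**Figure D2:**
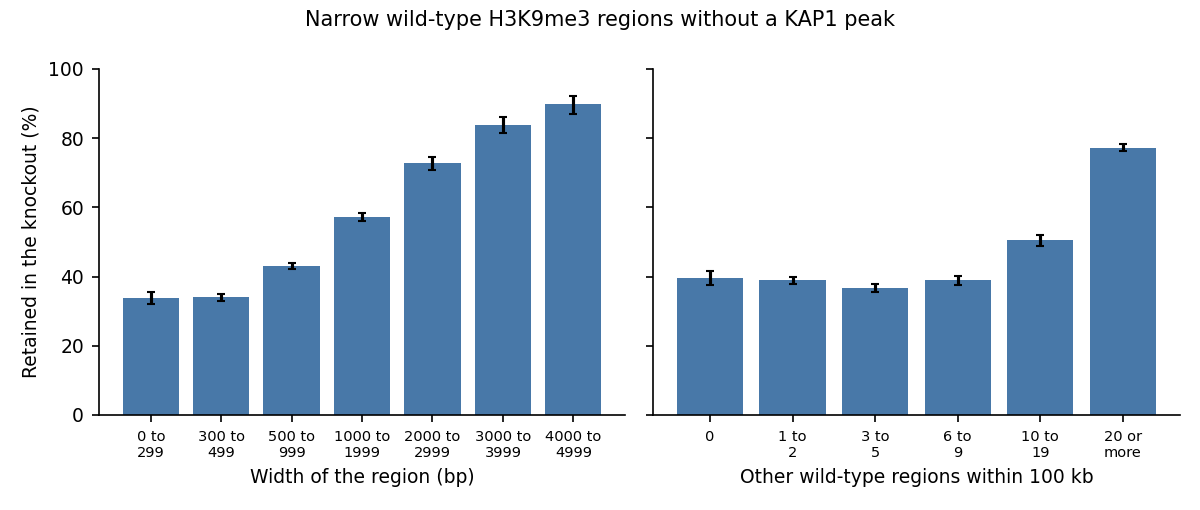
Share of narrow wild-type H3K9me3 regions without a KAP1 peak that were retained in the knockout (percent, bars with 95% Wilson intervals), by width in bp (left) and by the number of other wild-type regions within 100 kb (right). The share climbs from the narrowest to the widest bin, to 89.9%, and stands at 77.2% where 20 or more regions are near.

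Chromosomes differed as well. Chromosome 7 held the largest number, 2110 regions, which was 64.0% (62.3 to 65.6%) of its narrow regions without KAP1. Chromosome Y had the highest share, 74.2% (64.2 to 82.1%), from 66 regions, and on chromosome 12 the share was 60.2% (58.0 to 62.2%). Chromosome 1 had the lowest share, 29.5% (28.1 to 31.0%), although it had the most wild-type regions of any chromosome, 3918. Its members were also the least covered, at a median of 62.5%, against 92.6% on chromosome 7, 94.0% on chromosome X and 98.2% on chromosome Y.

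**Figure D3:**
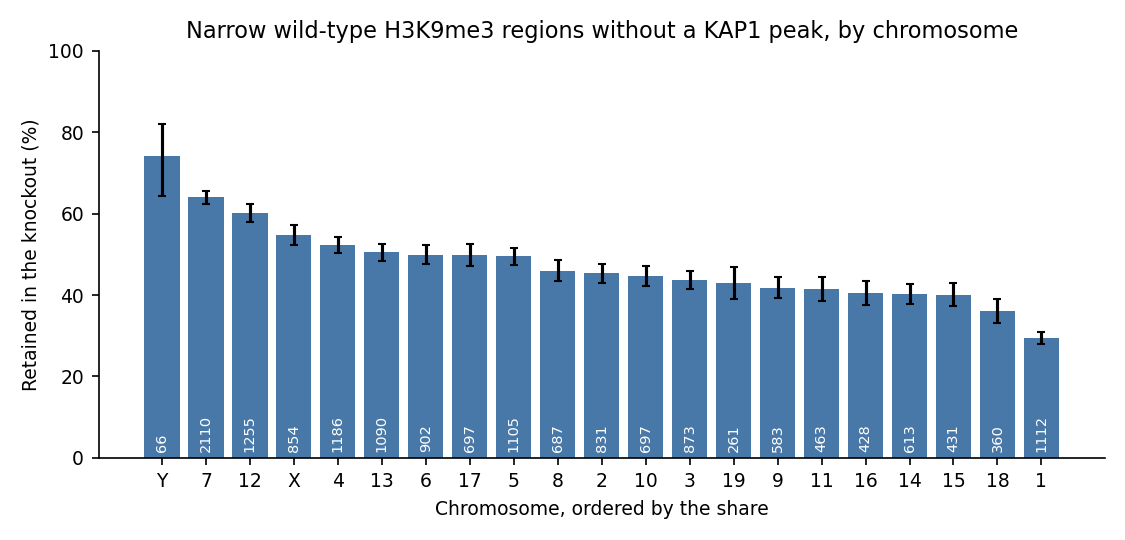
Share of narrow wild-type H3K9me3 regions without a KAP1 peak that were retained in the knockout (percent, bars with 95% Wilson intervals), by chromosome in order of the share; white numbers count the retained regions. Chromosome Y (74.2%) and chromosome 7 (64.0%) stand highest and chromosome 1 (29.5%) lowest.

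The regions were unevenly spread. They fell in 2375 windows of 1 Mb with a median of 4 per window, and 45 windows with 50 or more held 24.3% of them. The densest was 33 to 34 Mb of chromosome 7 with 160 regions and no deposited gene start. Next came 95 to 96 Mb and 94 to 95 Mb of chromosome 5, with 156 and 152 regions, and 120 to 121 Mb of chromosome X with 152. The chromosome 5 window from 94 Mb holds genes of the PRAME family. AA792892 stood there at 6.11 RPKM in knockout ES3 cells and 0.190 RPKM in wild type, while BC061212 and Pramel39 stood at 1.64 and 1.93 RPKM in knockout cells and wild type listed both at 0. All 3 passed the level of 1 RPKM through the knockout alone. At 22 to 23 Mb of chromosome 8, 112 regions surrounded a cluster of alpha-defensin genes, antimicrobial peptides of the gut, and Defa42 and Defa43, whose starts lay inside regions, reached 0.117 and 0.155 RPKM in knockout cells, with wild type listed at 0.

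The zinc finger cluster on chromosome 4 joined dense retained H3K9me3 with RNA in both genotypes. The windows at 146 to 147 Mb and 145 to 146 Mb held 141 and 127 regions, and all 12 genes starting there were measured, that is, reached 1 RPKM in either ES3 library. Of these, 6 had a knockout value 2-fold or more above wild type on the log2(RPKM + 1) scale and none was 2-fold lower. The share of all measured ES3 genes that were higher by this rule was 12.5%, and 3.18% were lower. Zfp992, whose start lies in the region chr4:145765339-145766258, stood at 12.6 RPKM in the knockout and 2.54 RPKM in wild type. Zfp991 stood at 10.6 RPKM in the knockout and 2.35 RPKM in wild type, and Gm13152 at 13.9 RPKM in the knockout and 3.404 RPKM in wild type. Zfp987 (12.1 RPKM in the knockout, 6.99 RPKM in wild type) and Zfp980 (9.57 RPKM and 5.23 RPKM) lay under 2-fold. Vmn2r-ps14, a vomeronasal receptor pseudogene with its start in the region chr4:145054082-145057541, stood at 9.02 RPKM in the knockout and 7.49 RPKM in wild type. Zinc finger genes of a cluster can be close copies that share reads, and how alike these are was not measured. Zfp991 and NM_027285 share the deposited start 146506147, so that the genes of the cluster are not independent points.

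KAP1 was absent by selection from the list of wild-type peaks over input, but other KAP1 lists reached some members. Peaks called in wild-type chromatin over knockout chromatin touched 57 members, or 0.343% (0.265 to 0.444%), against 61.0% (56.0 to 65.7%) of narrow retained regions with a KAP1 peak and 0.118% of narrow wild-type-only regions. They were 56 of the 2382 peaks of that list. The strongest by the authors' own score, whose scale is not stated, was chrX:72957058-72958318 with a score of 180.3, near 4933407K13Rik. Peaks called in knockout chromatin over input touched 80 members (0.482%), against 0.489% of all wild-type regions, and were 81 of 1898 peaks. They touched 0.187% of narrow wild-type-only regions and 2.57% of broad retained regions without a KAP1 peak. A KAP1 peak over input lay within 100 kb of 31.8% of the members, against 31.4% of all wild-type regions, and within 1 kb of 77 members. The closest members lay 50, 61 and 105 bp from such a peak, and the regions barely left out shared 18, 41 and 49 bp with one.

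Most regions lay far from genes. A deposited gene start lay inside 77 regions (0.464%), within 20 kb of 15.9% (15.4 to 16.5%) and more than 100 kb away from 53.6% (52.8 to 54.3%), against 18.4% within 20 kb and 47.7% beyond 100 kb for narrow wild-type-only regions. Gene bodies were touched by 15.2% of the members, against 17.5% of all wild-type regions, of which 0.484% held a gene start. The long transcript 2410018L13Rik, which spans 684161 bp as deposited, held 64 members. The body of Obox3, an oocyte-specific homeobox gene, held 24, and that of Zfhx3, a large homeodomain zinc finger protein, 18. The region with the most gene starts within 20 kb, 9, was chr4:88444729-88445232 in the type I interferon cluster, beside Ifnz and Ifna7, of which Ifnz stood at 0.127 RPKM in knockout cells and 0.0168 RPKM in wild type, and Ifna7 was listed at 0 in knockout cells and 0.0334 RPKM in wild type. The next, with 8 starts, was chr11:99659641-99660160 among hair keratin-associated genes such as Krtap4-13, at 0.765 RPKM in knockout cells, with wild type listed at 0.

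The place of members within genes of 5 kb or more was compared between zinc finger and other genes, without a test. Gene bodies were divided into 5 equal stretches from start to end. Of 52 members in the bodies of 25 Zfp genes, 18 (34.6%, 23.2 to 48.2%) lay in the last stretch and 5 (9.62%, 4.18 to 20.6%) in the first. Of 2402 members in other genes, 20.2% lay in the last stretch and 18.4% in the first. The narrow wild-type-only regions in Zfp genes had 28.8% (18.3 to 42.3%) in the last stretch, with an interval that overlaps that of the members. Members of 1 gene are not independent of each other.

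Genes near the regions were mostly quiet. Of 1994 genes with a start within 20 kb of a member, 1110 (55.7%) stood under 1 RPKM in wild-type ES3 cells, against 39.3% of all 17818 genes. Families of tissue-restricted genes were common among them. Within 20 kb lay 64 of 175 Olfr odorant receptor genes (36.6%), 30 of 64 Vmn vomeronasal receptor genes (46.9%), 48 of 123 Serpin and Cyp genes (39.0%), 15 of 36 clustered protocadherin genes (41.7%), 7 of 10 genes with a symbol of the defensin pattern, 1 of them the unrelated Def8, and 55 of 326 Zfp genes (16.9%), against 11.2% of all genes. At the low end were 1 of 55 histone genes, 1 of 31 primitive endoderm genes, 2 of 44 genes of KAP1 and H3K9 methylation, Hdac2 and Morc3, and 2 of 29 pluripotency genes. In between were 6 of 44 Krt keratin genes, 7 of 68 Mir genes and 8 of 75 small nucleolar RNA genes. Of these and the preceding lists, the Vmn, Def, Hist, Krt and Mir genes near a region had 2, 1, 1, 1 and 1 measured members and none past 2-fold, and no protocadherin gene near one was measured. Among the protocadherin genes, Pcdha1, Pcdha2, Pcdha4, Pcdha9, Pcdha12 and Pcdhac1 lay at the same distance from a region, 8355 bp, and are not independent points. Gene lists here were compiled with earlier results known, and these counts describe position only.

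In ES3 cells, genes near the regions were higher in the knockout more often than genes at large, and the share grew toward the regions. A ratio of at least 2-fold up on log2(RPKM + 1), a scale that understates the change of low genes, was found for 16 of 35 measured genes that start inside a member, which is 45.7% (30.5 to 61.8%), against 12.5% of all 12024 measured genes. Within 20 kb 201 of 1055 measured genes were higher (19.05%, 16.8 to 21.5%), 96 of them under 1 RPKM in wild type. Of genes up to 5 kb away 25.5% (20.5 to 31.3%) were higher, of genes between 5 and 20 kb 15.8% (13.4 to 18.5%), and beyond 100 kb 11.6% (10.9 to 12.3%). The 35 had a median log2 ratio of 0.85, against 0.08 for all measured genes. None of the 35 was 2-fold lower (1 was after centring on the median of all genes), and 27 of 1055 genes within 20 kb were (2.56%), against 3.18% of all measured genes. The 35 are those of 79 such genes that reached 1 RPKM, and 13 of them did so only in the knockout, where a call as higher is favoured by the choice. Restricted to genes at 1 RPKM or more in wild type, a restriction chosen after the values were seen, 6 of 22 genes starting inside (27.3%) and 105 of 884 within 20 kb (11.9%) were higher, against 8.32% of all such genes. The share depended on the wild-type level: between 1 and 5 RPKM 19.8% of genes within 20 kb were higher, against 14.4% of all genes at that level, between 5 and 20 RPKM 10.2% against 7.36%, and at 20 RPKM or more 2.16% (5 of 231) against 2.60%. Of genes starting inside, the same levels gave 5 of 9, 1 of 9 and 0 of 4. Lower calls at 1 RPKM or more in wild type were 0 of 22 and 27 of 884 (3.05%), against 3.53% of all such genes.

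**Figure D4:**
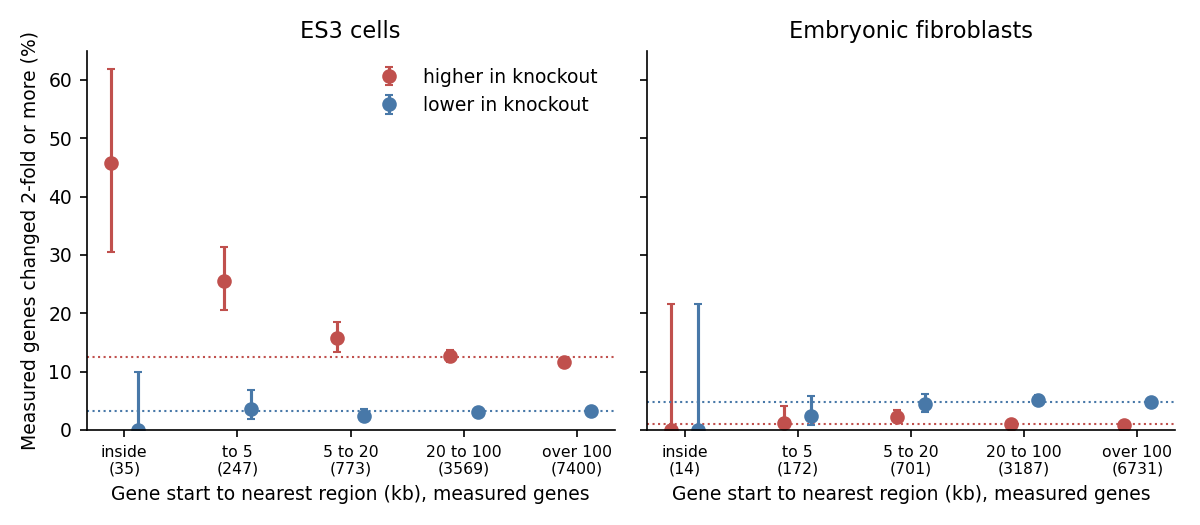
Share of measured genes at least 2-fold higher (red) or lower (blue) in the knockout on log2(RPKM + 1), in percent with 95% Wilson intervals, by the distance in kb from the gene start to the nearest narrow retained region without KAP1; ES3 cells left, MEFs right, numbers of measured genes in parentheses, dotted lines the share over all measured genes. In ES3 cells the higher share is 45.7% inside a region and 11.6% beyond 100 kb, with genes measured through the knockout alone included. At 1 RPKM or more in wild type these shares are 27.3% and 7.91%. In MEFs no gene inside passed 2-fold.

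Whether the members differed from the other H3K9me3 classes in this was not tested, and few genes starting inside a region were measured in each. Of measured genes starting inside a narrow wild-type-only region 7 of 20 (35.0%, 18.1 to 56.7%) were higher, and inside a broad retained region 7 of 14 (26.8 to 73.2%). These intervals are wide and overlap that of the members. At 1 RPKM or more in wild type 0 of 7 and 4 of 9 were higher, against 6 of 22 for the members. The share also rose toward narrow wild-type-only regions. Of measured genes up to 5 kb from these 20.7% (78 of 377) were higher, and between 5 and 20 kb 14.4% (200 of 1387). Around broad retained regions these shares were 30.0% (9 of 30) and 26.0% (13 of 50). Around narrow retained regions with a KAP1 peak they were 16.7% (2 of 12) and 13.2% (10 of 76). The libraries also differed in RNA of cell type markers. The 7 markers of primitive endoderm, an extraembryonic lineage, summed to 562.3 RPKM in knockout ES3 cells and 10.6 RPKM in wild type, with 7 and 2 of them at 1 RPKM or more and none at 0. The 9 ES cell markers summed to 1304 RPKM in the knockout and 2543 RPKM in wild type, all above 1 RPKM. Of 8 fibroblast markers 5 reached 1 RPKM in the knockout and 1 in wild type, where Postn and Twist2 were at 0, with sums of 19.7 RPKM and 2.97 RPKM. Of 4 endothelial markers 4 and 1 did, with sums of 15.4 RPKM in the knockout and 9.60 RPKM in wild type, and 1 of 4 leukocyte markers did in both, with sums of 65.5 RPKM in the knockout and 149.6 RPKM in wild type, Cd52 at 0 in both, and Csf1r and Ptprc at 0 in wild type. The part of these shifts in the genes near the regions was not tested, and in bulk RNA fewer cells of a type and less RNA per cell cannot be told apart.

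Among genes that start inside a region, the largest differences were found in low or unlisted wild-type genes and in the chromosome 4 zinc finger cluster. BC080695, from the 2-cell stage list, stood at 6.69 RPKM in knockout cells while wild type listed 0, and its start lies in the region chr4:143138172-143141806, covered whole in the knockout. Psme2b-ps, a proteasome activator pseudogene, stood at 15.4 RPKM in the knockout and 2.73 RPKM in wild type (log2 ratio 2.13); the reference table places its transcript on another chromosome. 2010005H15Rik, a stefin-like gene, stood at 2.89 RPKM in knockout cells, with wild type listed at 0. Fam111a, which encodes a replication-linked protease, stood at 10.5 RPKM in the knockout and 2.89 RPKM in wild type (log2 ratio 1.57) with its start in chr19:12618157-12622635, of which 54.0% was covered in the knockout. Dub2a, a deubiquitinase of a cytokine-induced family, stood at 1.70 RPKM in the knockout and 0.0118 RPKM in wild type.

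A row of related genes on chromosome 12 had low values in both libraries, the knockout the higher for each. Gm2022, BB287469 and Gm5039 share the start 89055025, in the region chr12:89052198-89056445, and stood at 1.42, 1.55 and 2.62 RPKM in knockout cells, against 0.223, 0.210 and 0.553 RPKM in wild type. Gm4027 stood at 2.49 RPKM in the knockout and 0.390 RPKM in wild type, Gm2016 at 1.93 and 0.237 RPKM, and Gm5662 at 1.83 and 0.123 RPKM. All 6 were under 1 RPKM in wild type, and the first 3 are 1 locus counted 3 times. Counting each start once left 15 of 33 genes higher (45.5%).

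Genes with the highest wild-type values and the lowest ratios were of other kinds. Coil stood at 13.2 RPKM in the knockout and 14.4 RPKM in wild type (log2 ratio −0.12), Usp14, a proteasome-bound deubiquitinase, at 14.6 and 12.9 RPKM (0.17), and Prr14, a protein that ties heterochromatin to the nuclear lamina, at 28.3 and 12.9 RPKM (1.08). The region at Prr14, chr7:134602732-134607066, was covered for 11.6% of its width in the knockout, and that at Coil, chr11:88831147-88832139, was covered whole. Gm15772 stood at 212.9 RPKM in the knockout and 184.9 RPKM in wild type (0.20). The lowest ratios belonged to transcripts listed by their identifiers alone. These had no match in the reference table, so their deposited place was not checked. As deposited, NR_030462 and NR_030461 span 109 bp each, NM_008049 spans 925 bp, and Gm15772 spans 519 bp. NR_030462 stood at 160.9 RPKM in the knockout and 308.4 RPKM in wild type (−0.93), NR_030461 at 107.4 and 194.3 RPKM (−0.85), and NM_008049 at 172.4 and 262.5 RPKM (−0.60). Tom1, an endosomal adaptor, stood at 6.08 RPKM in the knockout and 7.08 RPKM in wild type, and 4930529C04Rik at 2.02 and 2.23 RPKM. The deposited place of Tom1 is uncertain, since the reference table gives it on another chromosome.

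**Figure D5:**
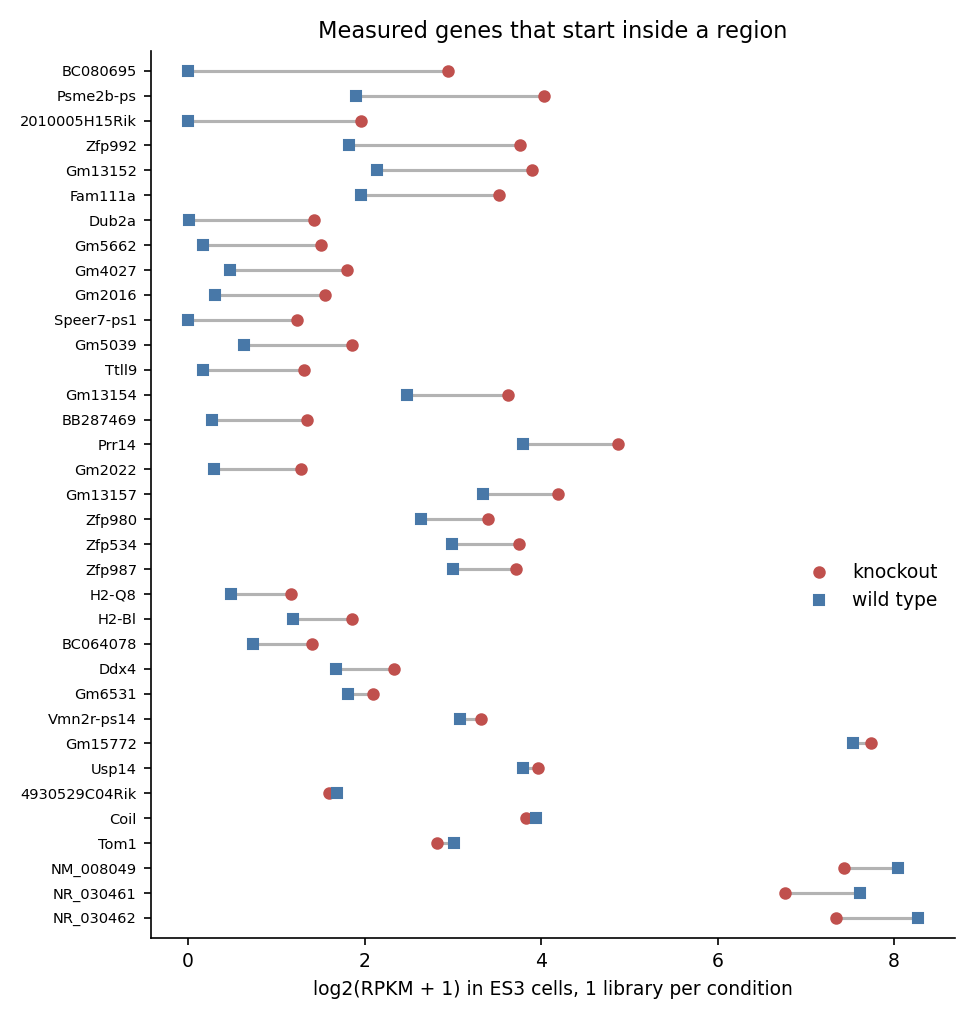
RNA level as log2(RPKM + 1) in knockout (red circles) and wild-type (blue squares) ES3 cells, 1 library each, of the 35 measured genes whose start lies inside a narrow retained region without KAP1, ordered by the difference. The knockout lies right of wild type for the upper genes down to Usp14, and left of it for 4930529C04Rik, Coil, Tom1 and the 3 transcripts named by identifier.

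Farther out, within 20 kb, the extremes included secreted, membrane and metabolic genes. Alox15, a lipoxygenase of macrophages and epithelia, stood at 49.1 RPKM in knockout ES3 cells and 0.160 RPKM in wild type. Cthrc1, a secreted collagen repeat protein, stood at 78.4 RPKM in the knockout and 1.52 RPKM in wild type (log2 ratio 4.98), and Cd209c, a lectin receptor gene, at 102.5 and 3.03 RPKM (4.68). Gsn, the actin-severing protein gelsolin, stood at 66.9 and 3.45 RPKM (3.93). Zfp575 stood at 48.3 RPKM in the knockout and 1.27 RPKM in wild type (4.44). A narrow wild-type-only region lay nearer to several of them than the member did: at Alox15 the distances were 8591 bp to the member and 2533 bp to the wild-type-only region, at Cthrc1 11597 and 5111 bp, and at Zfp575 7271 and 2152 bp. At the low end Sod2, the mitochondrial superoxide dismutase, stood at 24.7 RPKM in the knockout and 92.8 RPKM in wild type (−1.87), Aldh9a1, an aldehyde dehydrogenase, at 19.8 and 64.4 RPKM (−1.65), and Oas1a, a sensor of double-stranded RNA, at 0.207 and 2.48 RPKM (−1.53). Snord37, a small nucleolar RNA, was listed at 0 in the knockout and 4.36 RPKM in wild type.

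The counts by gene list stood as follows, to be read against 12.5% higher and 3.18% lower of all measured genes. Of 17 genes of the 2-cell stage 13 lay within 20 kb, and of the 9 measured among them 6 were higher and none lower, against 8 of 12 measured genes of the whole list. All 6 stood under 1 RPKM in wild type and were measured through the knockout alone, so that a higher call was favoured, and Zscan4c and Zscan4d share the start 11591071. Arg2, a mitochondrial arginase, stood at 2.68 RPKM in knockout cells, with wild type listed at 0, and Eif1a stood at 46.3 RPKM in the knockout and 48.6 RPKM in wild type. Arg2 lay 3429 bp from a narrow wild-type-only region and 15859 bp from a member, Eif1a 15651 and 17869 bp, and Zscan4f 47089 and 3032 bp. Zscan4f, of a family of telomere regulators whose copies share reads, stood at 8.11 RPKM in knockout cells and 0.00294 RPKM in wild type. Tdpoz1 and Tdpoz5, which start inside regions, had 0.552 and 0.394 RPKM in knockout cells, with wild type listed at 0. Of 44 measured Zfp genes near a region 6 were higher and none was lower (median log2 ratio 0.29), against 18 higher and 4 lower of all 274 measured Zfp genes (median 0.11). Of 12 measured histocompatibility and related genes, H2-D1 at 14.0 RPKM in the knockout and 4.60 RPKM in wild type and H2-K1 at 16.2 and 6.04 RPKM, both classical antigen-presenting molecules, were the 2 past 2-fold, against 4 of 22 measured genes of the whole list. The 2 Olfr genes measured near a region passed 1 RPKM in the knockout alone, Olfr1383 at 8.27 RPKM in knockout cells and 0.288 RPKM in wild type and Olfr1384 at 2.55 and 0.0372 RPKM. Of 5 measured Serpin and Cyp genes 3 were higher, against 9 of 18 of the whole list, the first 2 of them measured through the knockout alone: Cyp2b23 at 7.77 RPKM in the knockout and 0.318 RPKM in wild type, Cyp21a1, the steroid 21-hydroxylase, at 1.54 RPKM and listed at 0 in wild type, and Cyp20a1 at 15.2 and 5.59 RPKM. The start of Cyp21a1 lay inside a narrow wild-type-only region, and 9437 bp from the nearest member. Cyp2b23 lay 3015 bp from a narrow wild-type-only region and 6692 bp from a member, and Cyp20a1 241995 and 6056 bp. Of 7 measured small nucleolar RNAs 3 were lower and none higher, against 27 lower of 68 in the whole list.

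Within 20 kb lay 6 of 55 imprinted genes (10.9%) and 6 of 35 germline genes (17.1%), against 11.2% of all genes. Of the 6 imprinted genes Inpp5f, a phosphoinositide phosphatase, was the 1 past 2-fold, at 7.09 RPKM in the knockout and 2.24 RPKM in wild type, 194 bp from a region. Meg3, a maternally expressed long RNA, stood at 10.1 RPKM in the knockout and 14.8 RPKM in wild type, and Rtl1 at 0.764 and 1.00 RPKM. The start of Meg3 itself lay in a KAP1 peak called in wild-type chromatin over input, and 3849 bp from the nearest member. Of 4 measured germline genes none was higher and 1 was lower: D1Pas1, an RNA helicase, stood at 4.36 RPKM in the knockout and 10.7 RPKM in wild type. Ddx4, whose CG-rich promoter is printed above, stood at 4.06 RPKM in the knockout and 2.20 RPKM in wild type, and its region chr13:113441742-113443518 was covered for 40.2% in the knockout. Mael, a piRNA pathway gene, stood at 2.70 RPKM in the knockout and 6.18 RPKM in wild type. Dppa5a, an ES cell RNA-binding protein 562 bp from a region, stood at 328.6 RPKM in the knockout and 712.8 RPKM in wild type (−1.11), and Dppa3, a maternal factor, at 6.33 and 13.2 RPKM (−0.96). Hdac2 stood at 40.7 RPKM in the knockout and 52.8 RPKM in wild type, and Thbd, thrombomodulin, which parietal endoderm expresses, at 2.74 and 0.0621 RPKM. Thbd lay 1441 bp from a narrow wild-type-only region and 6595 bp from a member, and Hdac2 9537 and 850 bp.

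The same genes were looked up in MEFs, whose H3K9me3 was not analysed here. Of 887 measured genes within 20 kb of a region 17 (1.92%, 1.20 to 3.05%) were 2-fold higher in the knockout, against 0.981% of all 10805 measured genes, and 35 (3.95%, 2.85 to 5.44%) were lower, against 4.84%. At 1 RPKM or more in wild type, 14 of 861 (1.63%) were higher, against 0.895% of all such genes, and 35 (4.07%) were lower, against 4.93%. None of the 14 measured genes with a start inside a region passed 2-fold. Most of the inside genes with large ES3 ratios were low in both MEF libraries: Zfp992 stood at 0.561 RPKM in the knockout and 1.11 RPKM in wild type, and Gm13152 at 0.212 and 0.429 RPKM. Fam111a stood at 3.52 RPKM in knockout MEFs and 7.64 RPKM in wild-type MEFs (−0.94). Of 14 genes near members past 2-fold in both cell types 8 went the same way. The count over all genes was not taken, so this describes the 14 genes alone. Among the 8, Snord37 and Snord73b were listed at 0 in knockout MEFs. Dcxr, a carbonyl reductase, stood at 110.1 RPKM in the knockout and 17.1 RPKM in wild type in ES3 cells, and at 91.0 RPKM in the knockout and 33.8 RPKM in wild type in MEFs. Suz12, a Polycomb subunit, stood at 11.6 RPKM in the knockout and 26.0 RPKM in wild type in ES3 cells, and at 1.63 RPKM in the knockout and 4.70 RPKM in wild type in MEFs.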

How the data were processed

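H3K9me3 was profiled by chromatin immunoprecipitation in knockout and wild-type ES3 cells and deposited by the authors as region lists with starts and ends alone, 37221 for the knockout and 37002 for wild type. KAP1 peaks carry a score deposited by the authors, of unstated scale, with a lowest value of 50.01 over the 3 lists. The authors deposited RNA as RPKM per RefSeq transcript. Bowtie and mm9 are named in the submitters' processing notes, and no caller or version was given there or in the labels. The ES table names its columns by genotype alone and was read as ES3.

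Regions overlapped at 1 shared bp. Per symbol the transcript of highest mean RPKM stood for the gene (17818 in ES, 17813 in MEF). A gene was measured at 1 RPKM or more in either library and called at 2-fold on log2(RPKM + 1), on RPKM as deposited. Distances run from the gene start to the nearest base of a region. Shares have Wilson 95% intervals. With 1 library per condition there is no test, and depth is unknown, so precision cannot be given. Python 3.11.15 and pandas 2.3.3 were used, and the code was tested on simulated data. The members, the 17 gene lists and the tests were chosen with earlier results of these data known. Genes were named by rule: the 8 largest and 6 smallest ratios inside and within 20 kb, the 6 highest in wild type inside, and up to 4 per list; others, including those of the dense windows, were chosen after their values were seen. Alternatives varied overlap, KAP1 absence, width limit, window, gap, pseudocount, filter, centring, transcript rows and threshold. Base composition of the regions was not run. H3K27ac, Rex1GFP and input libraries were not analysed here.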

Additional observations from a re-analysis of the deposited data

Results flagged for a closer look

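Near the regions, 6 genes passed 2-fold in opposite directions in ES3 cells and MEFs. With 1 library per condition and cell type, the difference between the cell types was not tested. How many genes did so away from the regions was not counted. Esr1, the estrogen receptor alpha, had a log2(RPKM + 1) ratio of knockout over wild type of 3.597 in ES3 cells and −1.16 in MEFs. Col11a1, a fibrillar collagen, had 1.65 in ES3 cells and −1.01 in MEFs. Adam10, a membrane protease, had 1.09 in ES3 cells and −1.19 in MEFs. BC016423 had 1.06 in ES3 cells and −1.41 in MEFs, and Arfgef1, an exchange factor of vesicle traffic, 1.04 in ES3 cells and −1.02 in MEFs. Rny3, a small cytoplasmic RNA listed at 0 in knockout ES3 cells, had −1.34 in ES3 cells and 1.96 in MEFs. BC016423 starts 290 bp from a region, and the other five between 3308 and 18578 bp.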

How the results depend on the processing

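Counts of members lay within 1.5 times of the main count under the 5 alternative selections, from 12884 with 50% coverage by knockout regions to 17209 with a limit of 10000 bp. With 50% coverage the median width was 748 bp, the knockout span 897 bp, the covered share 91.9% and the share near a gene start 15.4%. A limit of 2500 bp gave 762 bp, 689 bp, 83.5%, 69.1% with a neighbour within 10 kb and 15.4% near a start; a limit of 10000 bp gave 914 bp and a knockout span of 788 bp. Leaving out peaks of all 3 KAP1 lists left 0% by construction. Gaps of 5 and 50 kb gave neighbours for 62.9% and 87.6%. Windows of 5, 50 and 100 kb put 4.38%, 31.3% and 46.4% of the members near a start; 28.0%, 15.4% and 14.1% of ES3 genes there were higher, and 62.4%, 49.4% and 45.2% stood under 1 RPKM in wild type; in MEFs 5 and 100 kb gave 1.08% and 1.18% higher. Of ES3 genes within 20 kb, 25.4% were higher with a pseudocount of 0.1 RPKM, 7.39% with 5 RPKM, 10.1% without a filter, 16.7% after centring, 9.19% at 3-fold and 11.9% at 1 RPKM in wild type. Of genes starting inside, the shares were 11.4% with 5 RPKM, 20.3% without a filter, 14.3% at 3-fold and 27.3% at 1 RPKM in wild type. Of MEF genes within 20 kb, 0.789%, 0.853% and 0.113% were higher with 5 RPKM, without a filter and at 3-fold. The shares of all MEF genes at these settings were not computed, so these values have no background. Of all measured ES3 genes 17.7%, 4.47%, 10.8% and 4.95% were higher with 0.1 RPKM, 5 RPKM, centring and 3-fold. Without a filter 8.46% of all ES3 genes were higher, near the 10.1% within 20 kb. In each case the share was below that of genes within 20 kb. The restriction on wild type, 1 gene per start and reference chromosomes were chosen after seeing the data. The knockout span was above the wild-type width with 50% coverage, a selection that favours this order, and below it otherwise. Of 68 named genes 17 fell below 2-fold with 5 RPKM, and 16 that passed 2-fold did not reach 3-fold. No paired analysis was possible because each group held 1 library. The unknown depth limits all values under 1 RPKM.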
